A study of Mus musculus with 14 samples.

Results

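Mast cells are long-lived tissue immune cells that arise from blood-forming precursors, settle in skin and other barrier tissues, and mature there under the control of the receptor Kit and its ligand. They store preformed proteases and histamine in granules bound to proteoglycan, and release them when the high-affinity IgE receptor on their surface is crosslinked. In mice, connective tissue mast cells of the skin are known for carboxypeptidase, chymases and tryptases. The 6 genes described here encode these products: Cpa3 (a mast cell carboxypeptidase), Cma1 and Mcpt4 (chymases), Tpsb2 (a beta tryptase), Hdc (histidine decarboxylase, which makes histamine) and Ms4a2 (the beta subunit of the high-affinity IgE receptor). They were picked by gene name from a table of 53465 genes, and each of the 6 names had 1 row.

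The table held RNA-seq read counts for 14 libraries of polyA RNA from wild-type C57BL/6 mouse embryos. The aorta-gonad-mesonephros region (AGM), where blood stem cells first form, was taken at 3 ages, E9.5 to E11.5 in steps of a day (E for embryonic day), and sequenced in 2 rounds. The youngest AGM samples were the caudal part of the embryo, PsP included as labelled. Dorsal skin came from 4 ages (E9.5 and E10.5, then E12.5 and E14.5). One project gave its skin libraries titles that begin with ES and another titles that begin with E, so each skin age had 1 library per title. No group carried a treatment or a transgene. The labels do not say whether libraries came from separate embryos or from pools, and a p-value here covers no more than the spread between the libraries at hand, which may be technical. AGM libraries of the second round are named by a sample number only, and each was given the age of the first-round sample with that number, which is an assumption.

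Library totals ran between 6770338 and 29534551 counts. The ES-titled libraries stood apart from the E-titled ones. Over their 4 ages the 7 erythroid genes summed to between 0.148 and 0.454 CPM (counts scaled to a common library total) in ES-titled skin, against 1191 to 8192 CPM in E-titled skin. The 7 keratinocyte genes summed to between 3.24 and 8.71 CPM in ES-titled skin, against 26.6 to 5099 CPM in E-titled skin, and Krt14 or Krt1 was at 0 in each ES-titled library. The 7 dermal fibroblast genes, in contrast, summed to between 8824 and 12230 CPM in ES-titled skin, against 982 to 30310 CPM in E-titled skin. The 2 titles are separate projects and were kept apart. In AGM the 6 mesonephros and gonad genes summed to between 164 and 272.5 CPM at E9.5 and E10.5 but to 60.1 and 47.2 CPM at E11.5, where Nr5a1 was at 0.0806 and 0 CPM. These markers of the region were thus lowest at the oldest labelled age. AGM ages are given as labelled throughout, and whether the labels are right was not tested.

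Promoters are printed for the members with an entry in the RefSeq table, because these genes had their highest count in the same library and the shared letters upstream of their starts can then be read beside their values. Of the 6 genes, 5 matched. Each sequence below is the 250 bases upstream of the RefSeq start, 5′ to 3′ on the gene's own strand, which was the minus strand in each case (GRCm38.p6). Cpa3 lies at chr3:20242182-20242431, Cma1 at chr14:55944676-55944925, Mcpt4 at chr14:56062311-56062560, Hdc at chr2:126618679-126618928 and Ms4a2 at chr19:11623720-11623969. The Hdc window lies inside the Hdc gene of the count table (chr2:126593667-126619299), which begins upstream of that RefSeq start. Capitals mark matches on either strand to a GATA-type motif, which was AGATAA or TGATAA, or either of them with G as the last letter.
Cpa3: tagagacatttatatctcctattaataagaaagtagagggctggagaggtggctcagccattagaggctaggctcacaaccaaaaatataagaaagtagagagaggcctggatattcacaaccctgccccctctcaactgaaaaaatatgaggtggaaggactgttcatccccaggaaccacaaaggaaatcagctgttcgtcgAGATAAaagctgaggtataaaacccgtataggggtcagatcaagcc
Cma1: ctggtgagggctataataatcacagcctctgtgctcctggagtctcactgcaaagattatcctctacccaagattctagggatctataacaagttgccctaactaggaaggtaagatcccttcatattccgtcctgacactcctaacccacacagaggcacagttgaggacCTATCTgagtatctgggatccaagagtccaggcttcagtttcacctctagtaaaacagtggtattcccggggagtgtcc
Mcpt4: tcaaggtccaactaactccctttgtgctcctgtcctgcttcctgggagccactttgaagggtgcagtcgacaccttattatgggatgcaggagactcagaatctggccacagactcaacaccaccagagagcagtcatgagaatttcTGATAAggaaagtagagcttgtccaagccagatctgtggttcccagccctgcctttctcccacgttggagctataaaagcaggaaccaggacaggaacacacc
Hdc: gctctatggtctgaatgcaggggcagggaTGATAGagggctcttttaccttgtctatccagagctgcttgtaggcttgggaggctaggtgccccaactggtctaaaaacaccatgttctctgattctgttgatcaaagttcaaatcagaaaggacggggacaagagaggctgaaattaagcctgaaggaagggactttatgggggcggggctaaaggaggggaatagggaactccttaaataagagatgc
Ms4a2: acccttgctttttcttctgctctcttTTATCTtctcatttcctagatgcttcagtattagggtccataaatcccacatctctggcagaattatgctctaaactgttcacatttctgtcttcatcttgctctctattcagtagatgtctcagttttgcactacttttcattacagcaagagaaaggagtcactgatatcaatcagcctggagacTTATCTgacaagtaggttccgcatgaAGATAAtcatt

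A GATA-type match was present in each of these 5 windows, and in 26.5% of the 32851 mouse promoter windows of the same length. Counting back from the start, the first base of the match was at -46 in Cpa3, -79 in Cma1 (reverse strand), -103 in Mcpt4 and -221 in Hdc. Ms4a2 had 3 matches, at -224 and -37 on the reverse strand and at -11 on the forward strand, and 6.40% of all windows had 2 or more. The letters TATAAA stood at -31 in Cpa3 and -32 in Mcpt4, and at -242 of Cpa3 on the reverse strand. On either strand, 12.4% of all windows held them. The E-box letters CATGTG and CACGTG, found in 17.6% of all windows, matched in none of the 5. A match describes the letters only and says nothing of binding.

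In E-titled skin the 6 genes were at or near 0 at E9.5 and E10.5, led by Cpa3 at E12.5, and present together at E14.5. By age their summed level was 0.401 CPM (E9.5), 0 (E10.5), 9.92 CPM (E12.5) and 379 CPM (E14.5). In what follows, 4 counts of a skin title are in order of age. Between E14.5 and E12.5 the ratio was 22.2 or more for Cpa3, Cma1, Tpsb2 and Hdc, and largest for the tryptase Tpsb2. In AGM only Hdc, Ms4a2 and Cpa3 were seen, at a few CPM or less, and Hdc was lower at E10.5 than at E9.5. In ES-titled skin none of the 6 genes exceeded 4 counts in any library. These are whole tissues, so fewer cells of a type and less RNA per cell cannot be told apart.

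**Figure D1:**
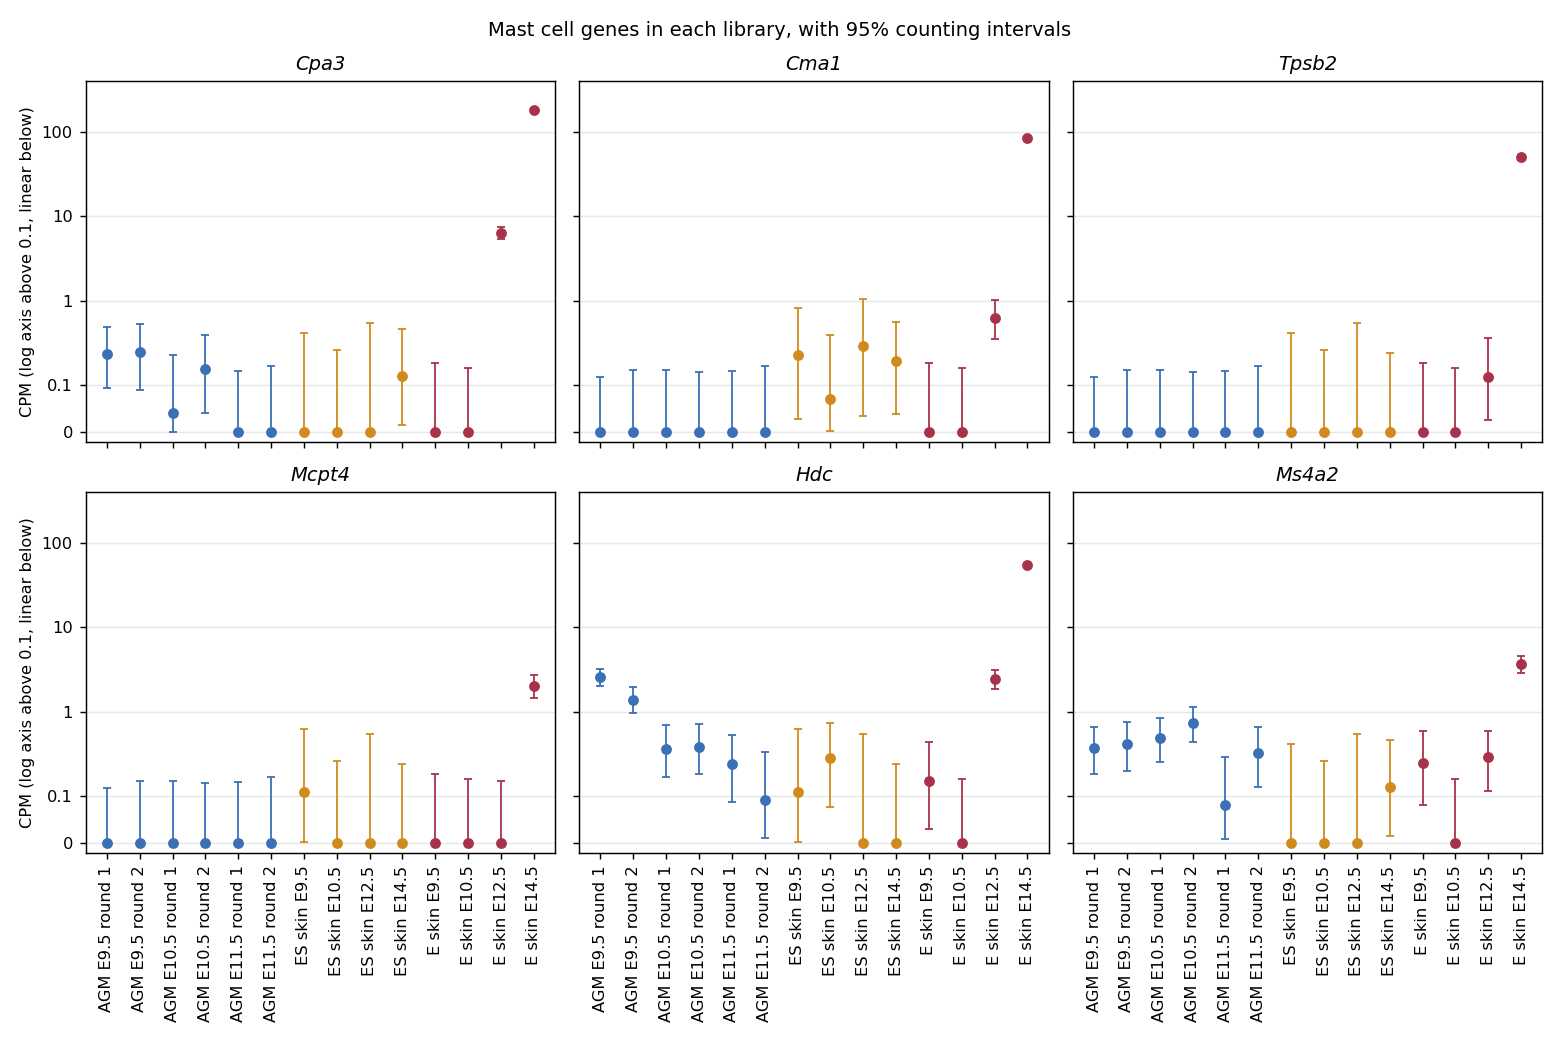
Level of each mast cell gene in CPM (y axis, logarithmic above 0.1 and linear below) in the 14 libraries (x axis). Points are single libraries and bars are exact 95% Poisson counting intervals. Each gene is highest in E-titled skin at E14.5, where Cpa3 reaches 184 CPM, and Hdc is highest at E9.5 among the AGM libraries.

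Cpa3 (ENSMUSG00000001865, chr3:20215620-20242181, minus strand) had 0, 0, 154 and 4112 counts in E-titled skin. These counts were 6.42 CPM at E12.5, with an exact 95% Poisson interval of 5.44 to 7.51, and 184 CPM at E14.5, with an interval of 178.5 to 190 CPM. Intervals and floors cover counting error only. The gene was thus absent from the counts at both early ages and present at both later ones. At E14.5 it was 28.7-fold higher than at E12.5, with a counting interval of 24.4 to 33.9, and edgeR's quasi-likelihood test gave a log2 change of 4.97 ± 0.24 (SE) and a Benjamini-Hochberg adjusted p of 2.17e-05. At E12.5 it was at least 48.6-fold higher than at E10.5, taking 3 counts per library as the floor for 0, and edgeR's adjusted p was 0.000121.

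Cma1 (ENSMUSG00000022225, chr14:55941451-55944675, minus strand) had 0, 0, 15 and 1899 counts in E-titled skin. Its level was 85.0 CPM at E14.5, against 0.625 CPM at E12.5, a ratio of 136 with a counting interval of 82.3 to 243.5. edgeR gave a log2 change of 7.21 ± 0.33 (SE) with adjusted p = 0.000121. At E12.5 it was at least 4.73-fold higher than at E10.5, with edgeR's adjusted p = 0.0137 and 0.0649 without the E14.5 skin library. Of its 50-base exonic windows, 5.38% also occur in the predicted gene Gm48934.

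Tpsb2 (ENSMUSG00000033825, chr17:25366550-25368094, plus strand) had 0, 0, 3 and 1113 counts in E-titled skin. It was at 49.8 CPM at E14.5, against 0.125 CPM at E12.5, a ratio of 398.7 whose counting interval ran between 136 and 1936. The tryptase was therefore nearly all in the last library, and the width of the interval reflects 3 counts at E12.5. Tpsb2 passed the filter on low counts through the E14.5 skin library alone, so no test is given for it between E14.5 and E12.5. Between E12.5 and E10.5 edgeR's adjusted p was 0.129.

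Mcpt4 (ENSMUSG00000061068, chr14:56059629-56062313, minus strand) was seen in E-titled skin at E14.5 alone, with 45 counts or 2.01 CPM. It had 0 counts at E12.5, which allows up to 0.125 CPM there. The level at E14.5 was at least 16.1-fold higher than at E12.5. This gene passed the filter on low counts through the E14.5 skin library alone, so no test is given for it. Mcpt4 shares 5.48% of its 50-base windows with Cma2 and Mcpt9, and neither of those exceeded 7 counts in that library.

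Hdc (ENSMUSG00000027360, chr2:126593667-126619299, minus strand) had 3, 0, 59 and 1217 counts in E-titled skin. The enzyme's level was 54.5 CPM at E14.5, against 2.46 CPM at E12.5, a ratio of 22.2 with a counting interval of 17.1 to 29.3. edgeR gave a log2 change of 4.60 ± 0.40 (SE) with adjusted p = 0.000120. It was at least 18.6-fold higher at E12.5 than at E10.5, with edgeR's adjusted p = 0.00135.

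Ms4a2 (ENSMUSG00000024680, chr19:11615523-11623719, minus strand) had 5, 0, 7 and 82 counts in E-titled skin. This receptor subunit was at 3.67 CPM at E14.5, against 0.292 CPM at E12.5, a ratio of 12.6 with a counting interval of 5.84 to 32.3. edgeR gave a log2 change of 3.76 ± 0.69 (SE) with adjusted p = 0.00470. At E12.5 it was at least 2.21-fold higher than at E10.5, where edgeR's adjusted p was 0.0619, and 0.0344 with the AGM round as a replicate block. It also passed there in edgeR with no filter on low counts (0.0155), so the call depended on the setting. At E9.5 Ms4a2 was at 0.251 CPM, with a counting interval of 0.0815 to 0.586. That interval overlaps the one at E12.5, 0.117 to 0.601 CPM.

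Tpsb2 and Mcpt4 passed the filter on low counts through the E14.5 skin library alone, so their tests between E14.5 and E12.5 are not counted. The other 4 genes passed the test and were higher at E14.5. Over all 19945 genes tested, 27.5% passed in either direction and 14.3% passed as higher. The count of 4 describes the genes and supports nothing further. With the ES-titled libraries fitted as duplicates of the E-titled ones none was called between E14.5 and E12.5, and edgeR's adjusted p was 1 for Cpa3, Cma1, Hdc and Ms4a2, or between 0.126 and 0.413 with a replicate block. Between E12.5 and E10.5, 3 of the 6 were called, all higher, where 30.1% of all genes were called in either direction and 17.4% as higher. Between E10.5 and E9.5 none was called, where 6.43% of all genes were. Hdc (adjusted p = 0.328) and Ms4a2 (adjusted p = 0.188) had counts at E9.5 only, and the other 4 genes had 0 counts at both ages. Each skin age is 1 library, so in these edgeR tests the spread came from the 3 AGM pairs and a skin library was assumed to vary as they do.

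Other cell types moved between the same libraries. Between E14.5 and E12.5 of E-titled skin, where 14.3% of all genes were higher, 7 of 7 keratinocyte genes and 6 of 7 erythroid genes were higher. So were 5 of 10 macrophage genes and 2 of 7 general leukocyte genes, and no gene of these lists was lower. Of 7 dermal fibroblast genes 6 were higher and 1 lower, and of 6 mesonephros and gonad genes 0 were higher and 3 lower. Among 5 endothelial genes 2 were higher, and among 5 megakaryocyte and platelet genes 0 were. Of the 6 melanoblast genes 2 passed the filter on low counts through the E14.5 library alone, and 3 of the other 4 were higher. The macrophage genes summed to 357 CPM at E14.5, against 189 CPM at E12.5, and the leukocyte genes to 109 CPM, against 66.8 CPM. Between E12.5 and E10.5, 10 of 10 macrophage genes and 3 of 7 leukocyte genes were higher, where 17.4% of all genes were. Between E10.5 and E9.5, 8 of 10 macrophage genes and 3 of 7 leukocyte genes were higher, while no mast cell gene was. In that step 6.43% of all genes were called in either direction. No keratinocyte, erythroid, macrophage, leukocyte or melanoblast gene listed was at 0 at E14.5. The part of these cell types in the change of the mast cell genes was not tested.

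**Figure D2:**
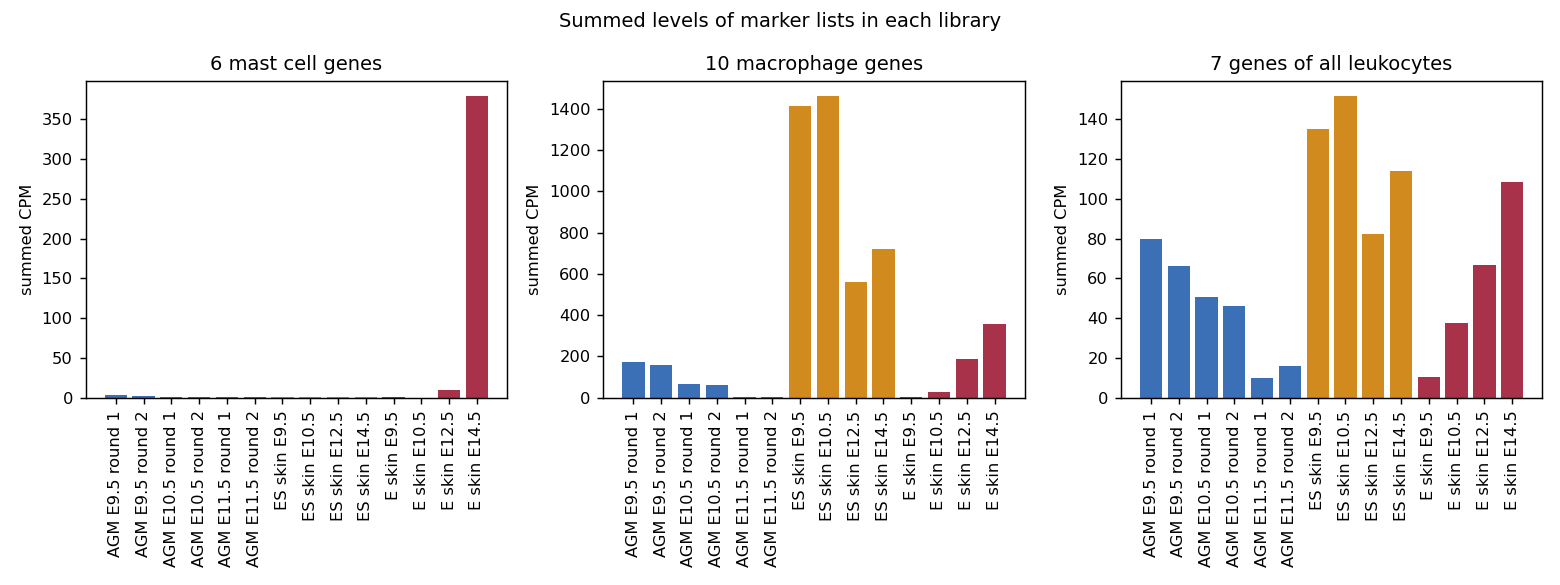
Summed level in CPM (y axis, from 0, a separate scale in each panel) of the 6 mast cell genes, 10 macrophage genes and 7 general leukocyte genes in the 14 libraries (x axis), 1 bar per library. In E-titled skin the mast cell sum is 0 at E10.5, where the macrophage sum is 29.5 CPM, and 379 CPM at E14.5.

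Basophils share several of these genes. Of 6 basophil markers, Fcer1a and Cd200r3 are also in the mast cell lists. Mcpt8, a basophil protease, was at 0.761 CPM at E14.5, against 0.0417 CPM at E12.5, and Prss34, another basophil protease, at 2.37 CPM, against 0.125 CPM. Both were nearly absent at E12.5. Of the 5 basophil genes tested, Mcpt8 and Cd200r3 passed the filter on low counts through the E14.5 skin library alone. Of the other 3, Prss34 (edgeR, adjusted p = 0.00626) and Itga2 (0.00641) were higher. Their part in the result was not tested.

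Levels between genes were compared per length, as TPM (counts per exonic length, scaled to a common total), with exonic lengths from GENCODE M21. At E14.5 of E-titled skin the order was Cpa3 at 487 TPM, Cma1 at 313, Tpsb2 at 125.5, Hdc at 34.3, Mcpt4 at 7.30 and Ms4a2 at 5.24 TPM. The counting intervals of Mcpt4 (5.33 to 9.77 TPM) and Ms4a2 (4.17 to 6.51 TPM) overlap, and the other neighbours are apart. At E12.5 Cpa3 led with 18.1 TPM, followed by Cma1 at 2.46, Hdc at 1.65, Ms4a2 at 0.444 and Tpsb2 at 0.336 TPM, with Mcpt4 at 0. There the intervals of Cma1 and Hdc overlap, as do those of Ms4a2 and Tpsb2.

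The mixture of products differed between both ages. Cpa3 made up 50.1% of the summed TPM of the 6 genes at E14.5, against 78.8% at E12.5. Cma1 made up 32.2% at E14.5, against 10.7% at E12.5, and Tpsb2 12.9%, against 1.46%. Relative to Cpa3 within a library, Cma1 had 0.462 counts per Cpa3 count at E14.5 (exact 95% interval 0.437 to 0.488), against 0.0974 at E12.5 (0.0532 to 0.166). Tpsb2 had 0.271 (0.253 to 0.289) at E14.5, against 0.0195 (0.00397 to 0.0580) at E12.5. The intervals of these 2 proteases do not overlap. Hdc had 0.296 (0.277 to 0.316) at E14.5, against 0.383 (0.279 to 0.520) at E12.5, and those intervals do overlap. Ms4a2 had 0.0199 (0.0158 to 0.0248) at E14.5, against 0.0455 (0.0180 to 0.0959) at E12.5, also overlapping. Mcpt4 had 0.0109 per Cpa3 count at E14.5, against 0 at E12.5 with an upper limit of 0.0242. The chymase Cma1 and the tryptase Tpsb2 thus gained on Cpa3. For Hdc, Ms4a2 and Mcpt4 the intervals overlap, which is no test of a difference and leaves a change undecided. There is 1 library per age, so these intervals compare the libraries and not the ages.

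**Figure D3:**
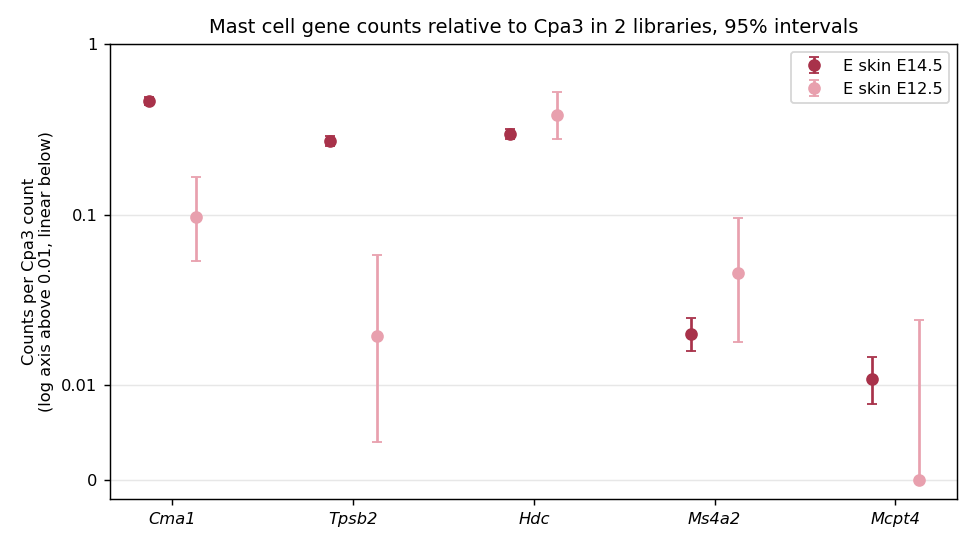
Counts of 5 mast cell genes per Cpa3 count (y axis, logarithmic above 0.01 and linear below) in E-titled skin at E14.5 (dark) and E12.5 (light), with exact 95% intervals of the ratio. Cma1 is at 0.462 at E14.5, against 0.0974 at E12.5, and Tpsb2 at 0.271, against 0.0195.

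In AGM, Hdc was highest in the libraries labelled E9.5. It had 2.57 CPM in round 1 and 1.40 CPM in round 2 at E9.5, 0.367 and 0.387 CPM at E10.5, and 0.242 and 0.0929 CPM at E11.5. Both E9.5 libraries were above all 4 later ones, and the E10.5 pair was above the E11.5 pair. At E10.5 it was lower than at E9.5 by a log2 change of -2.34 ± 0.45 (SE; edgeR, adjusted p = 0.0412). This call did not pass without the first-round E9.5 library (adjusted p = 0.321), without the first-round E10.5 library (0.164) or without the second-round E10.5 library (0.247), nor with limma-voom (0.0579). At E11.5 the change against E10.5 was -1.02 ± 0.65 with edgeR's adjusted p = 0.286.

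Ms4a2 was at 0.372 and 0.411 CPM at E9.5, 0.490 and 0.736 CPM at E10.5, and 0.0806 and 0.325 CPM at E11.5 in rounds 1 and 2 of AGM. Both E11.5 libraries were below the other 4. The edgeR log2 change at E11.5 against E10.5 was -1.54 ± 0.60 (SE) with adjusted p = 0.0980, and with the round as a replicate block the adjusted p was 0.0354. Between E10.5 and E9.5 it was 0.70 ± 0.52 with edgeR's adjusted p = 0.515.

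Cpa3 had 7 and 6 counts at E9.5, 1 and 4 counts at E10.5, and 0 in both rounds at E11.5 of AGM. That is 0.237 and 0.247 CPM at E9.5, and 0.0408 and 0.155 CPM at E10.5. Cpa3 counts were therefore highest in both E9.5 libraries, at a level too low to pass the filter for a test within AGM. Cma1, Tpsb2 and Mcpt4 had 0 counts in all 6 AGM libraries, which allows up to between 0.102 and 0.139 CPM per library. With both rounds summed, Hdc had 8.46 counts per Cpa3 count at E9.5 (interval 4.75 to 16.4) and 3.80 at E10.5 (1.37 to 13), against 0.296 in E14.5 E-titled skin.

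Of the 2 genes tested within AGM, 1 was called between E10.5 and E9.5, where 2.59% of 17613 genes were, and 0 between E11.5 and E10.5, where 27.2% were. Macrophage genes were lower in 10 of 10 in both steps, and general leukocyte genes in 0 of 7 and then 5 of 7. Over all 17613 genes, 303 were lower in the first step and 2716, or 15.4%, in the second. The macrophage sum in AGM ranged between 3.26 and 172 CPM and the leukocyte sum reached 79.8 CPM, both highest at E9.5 and lowest at E11.5, as for Hdc. At E11.5, Adgre1 and C1qc were at 0 in both rounds. Their part in the lower Hdc levels at the later labelled ages was not tested.

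Set beside E-titled skin of the same labelled age, AGM was higher for Hdc at both ages. At E9.5 Hdc was at 2.57 and 1.40 CPM in AGM, against 0.151 CPM in skin, a log2 change of 3.64 ± 0.67 (SE; edgeR, adjusted p = 0.00459). Cpa3 at E9.5, with 7 and 6 counts in AGM against 0 in skin, also passed (edgeR, adjusted p = 0.0360). That Cpa3 call did not pass with DESeq2 (0.0816), with limma-voom (0.0571), without the E14.5 skin library (0.0534) or without the first-round (0.0783) or second-round (0.0682) E9.5 library. Ms4a2 at E9.5 was at 0.372 and 0.411 CPM in AGM, against 0.251 CPM in skin, with edgeR's adjusted p = 0.612.

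At E10.5 the 6 genes had 0 counts in E-titled skin. Ms4a2 had 12 and 19 counts in AGM at that age (edgeR, adjusted p = 0.0167) and Hdc had 9 and 10 (adjusted p = 0.0375). Hdc did not pass at E10.5 with limma-voom (0.0841) or without the first-round (0.0651) or second-round (0.0717) library. Cpa3, with 1 and 4 counts, did not pass (edgeR, adjusted p = 0.141). Thus 2 of the 6 genes were called higher in AGM at each age, where 33.9% of all genes were called in either direction at E9.5 (18.0% as higher) and 24% at E10.5 (11.7% as higher). All 10 macrophage genes were also higher in AGM at E9.5, and at E10.5 this held for 7 of them. Their part was not tested.

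ES-titled skin did not show the late mast cell genes of E-titled skin. Cpa3 had 0, 0, 0 and 2 counts in ES-titled skin, against 0, 0, 154 and 4112 in E-titled skin. At E14.5 ES-titled skin had 0 counts of Tpsb2, Mcpt4 and Hdc, so Tpsb2 was at least 256-fold lower, Hdc at least 280-fold lower and Mcpt4 at least 10.4-fold lower than in E-titled skin. Cma1 had 3 counts at E14.5 in ES-titled skin, against 1899 in E-titled skin. Its 2, 1, 2 and 3 counts over the 4 ages of ES-titled skin showed no step at E12.5 or E14.5. Hdc had 1, 4, 0 and 0 counts in ES-titled skin and Ms4a2 0, 0, 0 and 2. Tpsb2 had 0 counts in all 4 ES-titled libraries, and Mcpt4 had 1 count at E9.5 and 0 at the later ages.

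With age as a block, Cpa3, Cma1 and Hdc entered the edgeR fit of ES-titled against E-titled skin, where 59.1% of 18968 genes were called. All 3 passed the filter on low counts through E-titled libraries alone, so no test between titles is given for them. The log2 change was -9.94 for Cpa3, -3.045 for Cma1 and -3.866 for Hdc. For Cpa3 it was -7.24 without the E-titled E14.5 library and -7.50 without the ES-titled one. The other 3 genes did not pass the filter on low counts when all 8 libraries were fitted. The macrophage sum was between 559 and 1461 CPM in ES-titled skin, against 3.71 to 357 CPM in E-titled skin. The leukocyte sum was between 82.1 and 152 CPM, against 10.3 to 109 CPM. Gene by gene, however, 1 of 10 macrophage genes was called higher, 1 lower and 8 did not pass (edgeR). Of the 7 leukocyte genes 1 was higher, 1 lower and 5 did not pass. Cx3cr1, a macrophage gene, was at 0 in ES-titled skin at E12.5. The part of cell makeup was not tested, and title and sequencing project cannot be told apart.

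A further 52 genes of mast cells in 7 lists gave the context of the 6. Between E14.5 and E12.5 of E-titled skin, 41 could be tested, and 21 were higher, 2 lower and 18 did not pass. Of the 41, Tpsg1, Cd200r3 and Adora3 passed the filter on low counts through the E14.5 library alone. Of the other 38, 18 were higher and 2 lower, where 14.3% of all genes were higher and 27.5% were called in either direction. Between E12.5 and E10.5, 12 of 41 were higher and 5 lower, where 17.4% of all genes were higher and 30.1% were called in either direction. Il1rl1 was then at 2.96 CPM at E12.5, against 0.132 CPM at E10.5 (edgeR log2 change 4.38, adjusted p = 0.0119), and Runx1, a factor of blood formation, at 25.4 CPM, against 3.87 CPM (2.67, adjusted p = 0.00105). Fcer1g was at 6.46 CPM at E12.5, against 1.01 CPM at E10.5 (2.62, adjusted p = 0.000966). In the other direction, Plcg2 had 160 counts at E12.5, against 543 at E10.5, and Csf2rb 109, against 305. Between E10.5 and E9.5, 3 of 41 were higher and 2 lower, where 6.43% of all genes were called.

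**Figure D4:**
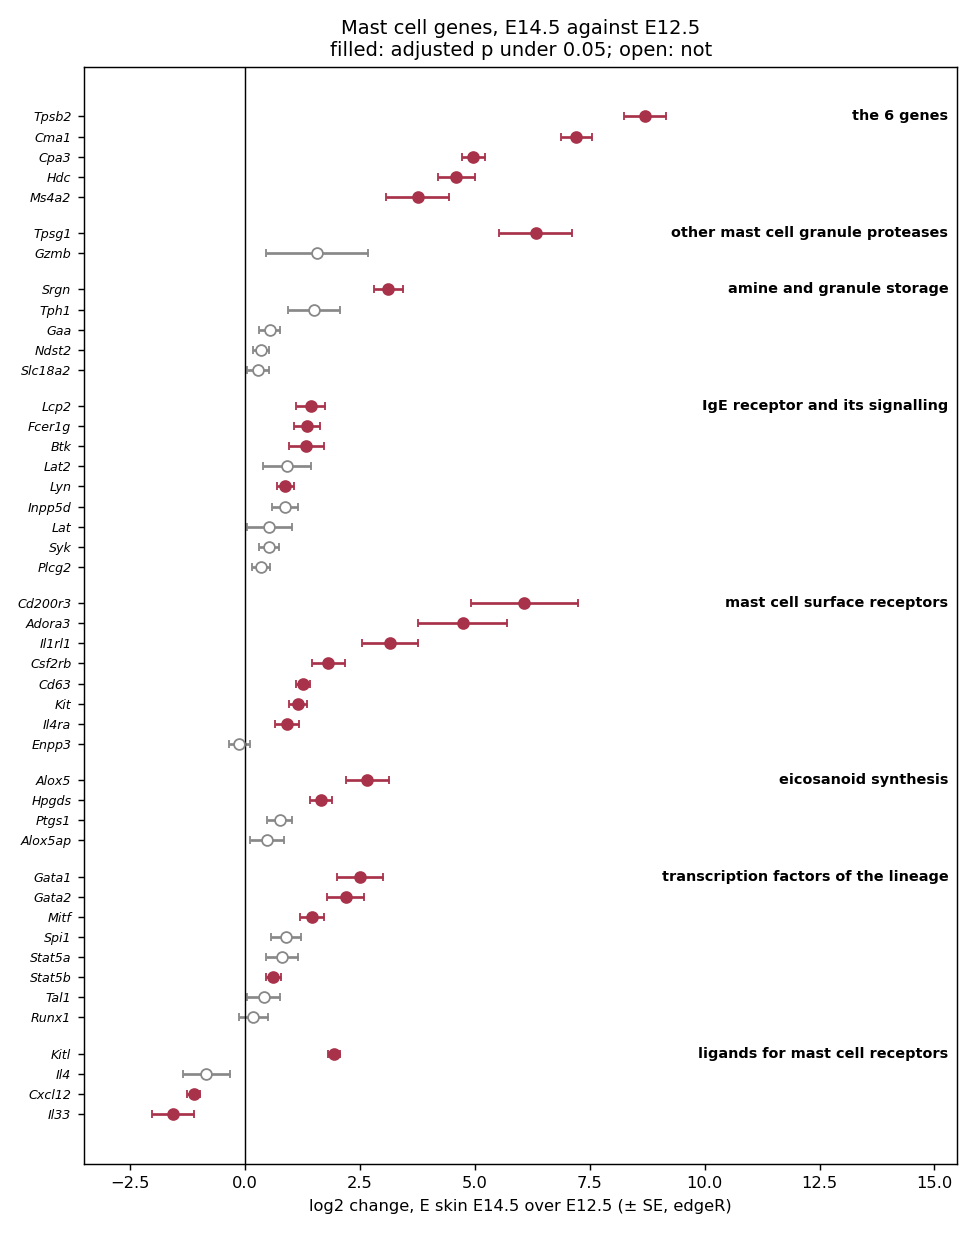
edgeR log2 change of E-titled skin at E14.5 over E12.5 (x axis) for the mast cell genes and the tested genes of 7 related lists (y axis), with SE as bars. Filled points have adjusted p under 0.05. Mcpt4 is not drawn because it had 0 counts at E12.5, and 1 gene of the lists is not shown. Tpsb2, Tpsg1, Cd200r3 and Adora3 passed the filter on low counts through the E14.5 library alone. Their filled points are not counted as results. Filled points lie right of 0 except Il33 and Cxcl12.

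Of the 8 surface receptors tested, Cd200r3 and Adora3 passed the filter on low counts through the E14.5 skin library alone, and 5 of the other 6 rose at E14.5 against E12.5, where 14.3% of all genes did. Cd200r3, an activating receptor of mast cells and basophils, had 65 counts at E14.5, against 1 at E12.5. Adora3, an adenosine receptor, had 71 counts at E14.5, against 3 at E12.5. Il1rl1, the receptor for the Il33 product, was at 24.2 CPM at E14.5, against 2.96 CPM at E12.5 (edgeR log2 change 3.16, adjusted p = 0.00615). Csf2rb, a shared cytokine receptor chain, was at 14.6 CPM, against 4.54 CPM (1.82, adjusted p = 0.00713). Its counts in order of age were 234, 305, 109 and 327, so this rise followed a drop at E12.5 to 0.338-fold of E10.5. Kit, also carried by melanoblasts and blood precursors, was at 71.5 CPM at E14.5, against 35.2 CPM at E12.5 (1.15, adjusted p = 0.00293). Cd63, a granule membrane protein, was at 152 CPM at E14.5, against 69.4 CPM at E12.5 (1.27, adjusted p = 0.000457). Kit was already at 34.5 CPM at E9.5 and 30.6 CPM at E10.5, before any Cpa3 count, and had 0.388 counts per Cpa3 count at E14.5, against 5.49 at E12.5. Mrgprb2, a receptor for basic secretagogues on mouse mast cells, and the related gene Mrgprb1 had 1 count each at E14.5.

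The other granule proteases were sparse in E-titled skin. Tpsg1, a membrane-anchored tryptase, had 145 counts or 6.49 CPM at E14.5, against 2 counts or 0.0833 CPM at E12.5. It passed the filter on low counts through the E14.5 skin library alone, so no test is given for it. Tpsab1, the other mast cell tryptase, had 14 counts at E14.5 and 0 in each of the other 13 libraries. Mcpt1 and Mcpt2, proteases of mucosal mast cells in mice, had 1 and 4 counts at E14.5 of E-titled skin. In ES-titled skin Mcpt1 had 17, 20, 12 and 12 counts in order of age. Cma2 had 13, 48, 10 and 44 there and Mcpt9 had 9, 33, 3 and 33, while Tpsg1 had 0 in each ES-titled library.

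Among amine and granule storage genes, Srgn, the core protein of the granule proteoglycan serglycin, was at 25.2 CPM at E14.5, against 3.17 CPM at E12.5 (edgeR log2 change 3.12, adjusted p = 0.000238). Gaa, a lysosomal glucosidase, was at 151 CPM at E14.5 and did not pass. Slc18a2, the vesicular monoamine transporter, was at 10.4 CPM at E14.5, against 9.37 CPM at E12.5, and did not pass. In prostanoid and leukotriene synthesis 2 of 4 rose, where 14.3% of all genes did. They were Alox5 (5.33 CPM at E14.5, against 0.917 CPM at E12.5) and Hpgds, the haematopoietic prostaglandin D synthase (26.7 CPM, against 9.29 CPM).

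No count fell on the alpha chain of the IgE receptor. Fcer1a, which encodes that chain, had 0 counts in all 14 libraries, which allows up to between 0.102 and 0.443 CPM per library. Fcer1g, the gamma chain shared with other receptors, was at 15.1 CPM at E14.5, against 6.46 CPM at E12.5 (edgeR log2 change 1.36, adjusted p = 0.00841), and Ms4a2, the beta chain, is given above. Of the 9 signalling genes tested in this list, 4 rose, where 14.3% of all genes did. They were Fcer1g, Lyn, Lcp2 and Btk, with log2 changes between 0.88 and 1.43.

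Of the 8 transcription factors of the lineage, 4 rose at E14.5 against E12.5, where 14.3% of all genes did. Gata2 was at 39.0 CPM at E14.5, against 9.33 CPM at E12.5 (edgeR log2 change 2.19, adjusted p = 0.00452). Gata1 was at 4.34 CPM, against 0.833 CPM (2.51, adjusted p = 0.00719), and at E12.5 it was lower than at E10.5, where it was at 7.44 CPM (-3.20, adjusted p = 0.00178). Mitf, also a factor of melanocytes, was at 16.3 CPM at E14.5, against 6.50 CPM at E12.5, and Stat5b at 71.9 CPM, against 51.2 CPM. Among ligands, Kitl, the ligand of Kit, was at 174 CPM at E14.5, against 49.8 CPM at E12.5 (1.94, adjusted p = 4.66e-05). Il33 fell to 1.79 CPM at E14.5, against 5.83 CPM at E12.5 (adjusted p = 0.0336), and Cxcl12, a chemokine, to 95.8 CPM, against 226 CPM (adjusted p = 0.000875). Il3, whose product supports mast cell growth, had 0 counts in all 14 libraries.

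In AGM, 37 of the 52 genes could be tested. Between E10.5 and E9.5, 1 was higher (Plcg2) and 3 were lower (Fcer1g, Hpgds and Gata2), where 2.59% of all genes were called. Between E11.5 and E10.5 none was higher and 14 were lower, where 15.4% of all genes were lower. They were led by Spi1, a myeloid factor, with an edgeR log2 change of -3.43 (adjusted p = 0.000421), Hpgds (-2.15), Cxcl12 (-2.09) and Srgn (-1.86). Gata2 in AGM was at 47.8 and 30.8 CPM at E9.5, 17.0 and 10.8 CPM at E10.5, and 7.37 and 5.57 CPM at E11.5, in the same order by age as Hdc. In AGM against E-titled skin, 24 of 41 tested genes were higher and 1 lower at E9.5, where 18.0% of all genes were higher. At E10.5, 11 were higher and 0 lower, where 11.7% of all genes were higher.

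**Figure D5:**
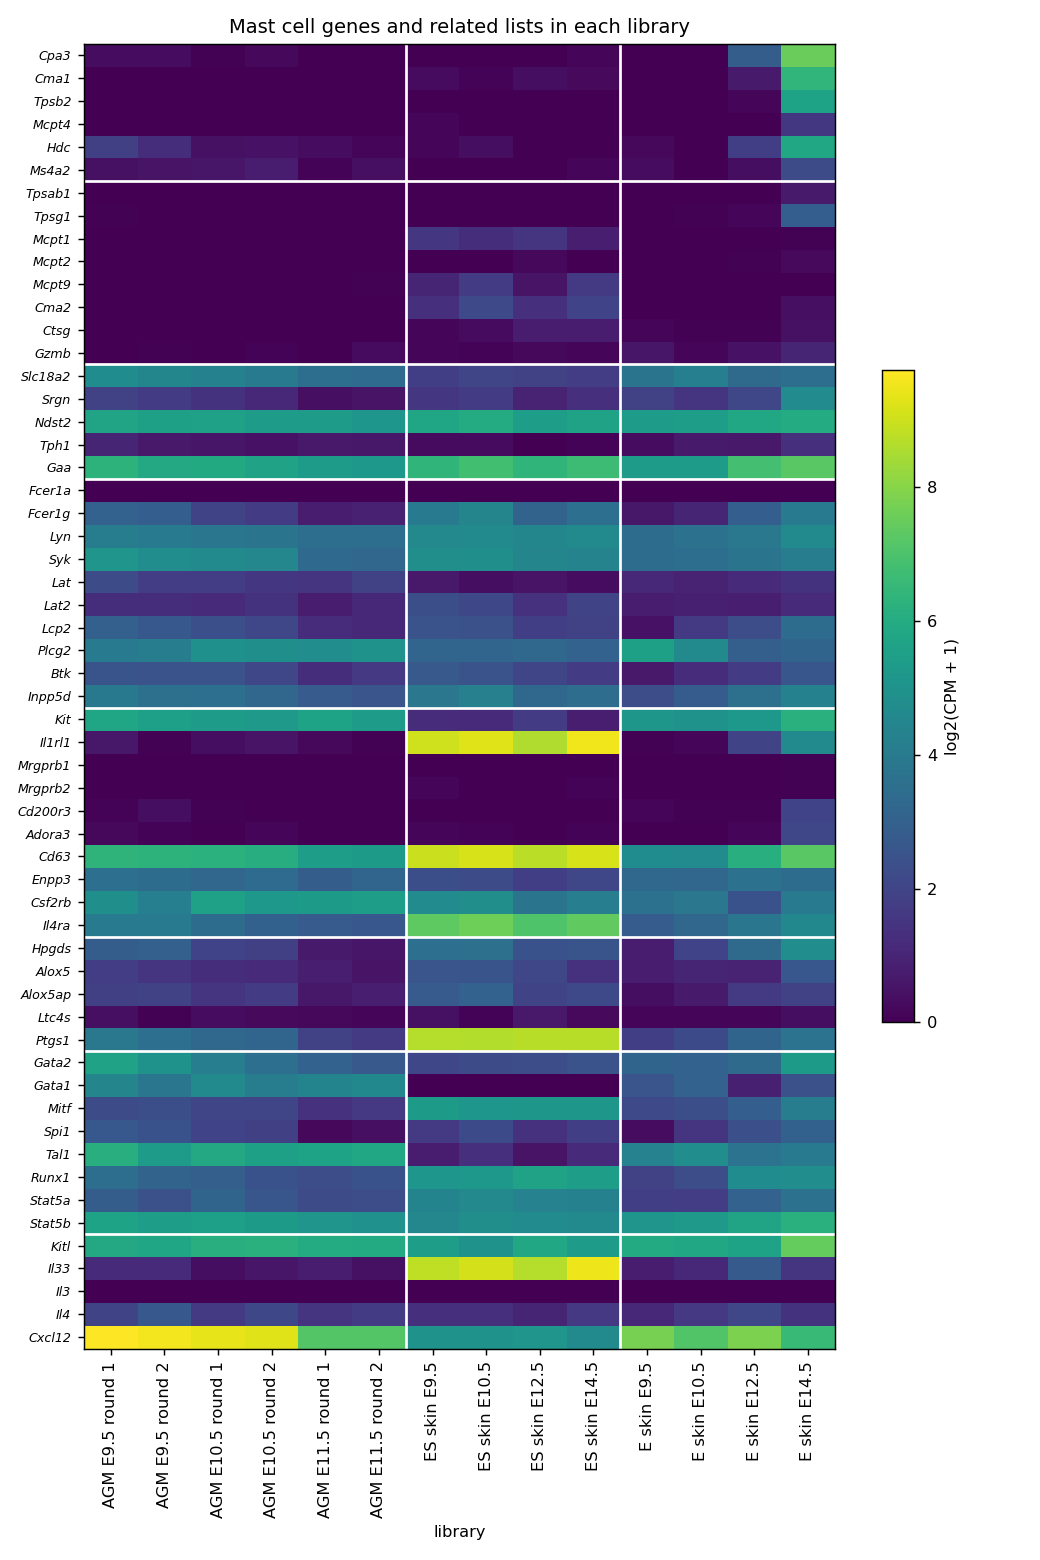
Level as log2(CPM + 1) (colour) of the 6 mast cell genes and the 52 genes of 7 lists but 1 that is not shown (rows, lists parted by white lines) in the 14 libraries (columns, tissues parted by white lines). The proteases at the top are bright in E-titled skin at E14.5, where Cpa3 is at 184 CPM, while Il1rl1, Ptgs1 and Il33 are bright in ES-titled skin.

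The genes whose pattern was most like the mean log2(CPM + 1) of the 6 members over 10 libraries without ES-titled skin were Serpinb10, Phldb3, Calml3, Pla2g4f and Serpinb7, with Pearson r between 0.998 and 0.999. Of the 12797 genes with at least 5 CPM in 1 of these libraries, 638 had r above 0.9. These libraries share 1 high point, E14.5 skin, which sets most of each r. In that library Serpinb10 was at 61.7 CPM and Phldb3 at 45.7 CPM. Tpsg1 ranked 69 and Il1rl1 ranked 221 by the same measure, the highest of the 34 list genes that reached 5 CPM. The other 18 of the 52, Cd200r3, Adora3 and Tpsab1 among them, were not ranked. The order of likeness depended on the scale, as 2 of the 5 genes stayed with a pseudocount of 0.25 and none with Spearman's rho.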

How the data were processed

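RNA-seq read counts per gene were deposited by the authors as 1 table of raw counts. Per the submitters' processing notes, the tools were featureCounts 1.6.0, STAR 2.5.0a, DESeq2 1.20.0 and Trimmomatic 0.36, with GRCm38/mm10. Annotation, strand and multi-mapping settings are not given in the sources used here, so reads of family members could be split or dropped. Per the labels' protocols, tissue was frozen on dry ice, and polyA libraries were made with an Illumina or Kapa kit.

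The 6 genes, the other lists and the tests were chosen with earlier results of these data known. Counts were tested with edgeR 4.0.16 (R 4.3.3), with filterByExpr, TMM scaling, the quasi-likelihood test and Benjamini-Hochberg adjustment over all genes tested, called under 0.05. Skin ages, and AGM against skin, were fitted on 10 libraries (6 AGM and 4 E-titled skin, 3 residual degrees of freedom), AGM ages on 6 libraries, and titles on 8 skin libraries with age as a block. All 6 genes passed the filter in the first fit, 2 in the second and 3 in the third. The code was tested on simulated data. Alternatives were DESeq2 1.42.0, limma-voom (limma 3.58.1), DESeq2 size factors, other filters, the AGM round as a replicate block, E and ES libraries as duplicates, and each library left out. The rounds pair the AGM libraries: round differences correlated at r = 0.427, 0.305 and 0.354 between ages over 17613 genes. The fits described had no term for the round, so this pairing enters only the alternatives with a replicate block. For each second-round library, the first-round library of the same number had the highest correlation (r = 0.989, 0.991 and 0.989).

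CPM used library totals. TPM used GENCODE M21 exonic lengths (GRCm38), in which 53274 gene IDs were found. Promoters are RefSeq windows. Poisson and ratio intervals are exact at 95%, and the floor for 0 was 3 counts. No 2 libraries held identical values. Besides the 6 genes, list genes were named if called, up to the 4 largest changes in a list, or if most abundant in the library where the 6 were highest. Mrgprb1, Mrgprb2, Mcpt1, Mcpt2, Tpsab1, Fcer1a, Il3 and Slc18a2 were named after their values were seen. The values of 1 list gene are not reported here.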

Additional observations from a re-analysis of the deposited data

How the results depend on the processing

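The number of the 6 genes called in a comparison did not change when edgeR used DESeq2 size factors. With E and ES libraries of an age as duplicates, 0 were called at E12.5, at E14.5 and for AGM E10.5, against 3, 6 and 1 in the fits described. Counts at E14.5 here include Tpsb2 and Mcpt4, which entered the fit described through the E14.5 skin library alone. That fit also called 0 in both comparisons of AGM with skin, where 2 each were called, and 2 each again once the replicate block was added. With at least 1 CPM required in 2 libraries, 2 were called at E14.5 and 1 between AGM and skin at E10.5, as fewer of the 6 were tested. limma-voom called 0 for AGM E10.5 and 1 in each tissue comparison, and DESeq2 called 1 between tissues at E9.5. The replicate block called 1 for AGM E11.5. Between titles, DESeq2 called 0, no filter 3 and the fit with no replicate block 0, against 1. The members tested between titles in the fit described had entered it through E-titled libraries alone. Leaving out 1 library gave 0 to 0 called at E10.5, 2 to 4 at E12.5, 6 to 6 at E14.5, 0 to 1 for AGM E10.5, 0 to 0 for AGM E11.5, 1 to 2 in each tissue comparison and 1 to 4 between titles. Of 381 values of single genes, 332 kept their direction and their side of the threshold, 36 lost the call, 9 gained it and 4 that were not called changed sign. Except for the stricter filter, the cause was not tested.

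Over all genes, the replicate block raised the number called to 3872 at E10.5 (against 1282), 9568 at E12.5 (against 6003), 9023 at E14.5 (against 5488), 4237 for AGM E10.5 (against 457) and 8491 for AGM E11.5 (against 4791). Between AGM and skin it called 10234 at E9.5 (against 6759) and 8491 at E10.5 (against 4779). At E10.5 it put the share of higher calls at 59.3%, against 72.2% without it. No filter called 2151 at E10.5 and 1769 for AGM E10.5, and DESeq2 929 for AGM E10.5. With E and ES as duplicates edgeR called 0 genes in each of these comparisons, with 27 to 950 at an unadjusted p under 0.05. With the block added it called 0 at E10.5 and for AGM E10.5 (674 and 370 at an unadjusted p under 0.05), 2 at E12.5, 10 at E14.5, 50 for AGM E11.5 and 4321 between tissues at E9.5. For AGM E10.5, 1 gene was called without the second-round E10.5 library, 24 without the first-round E9.5 library and 104 without the first-round E10.5 library.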

Other observations

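ES-titled skin, which nearly lacked the 6 genes, held other genes of the mast cell lists at high levels. Of the 52 genes, 41 were tested between ES-titled and E-titled skin with age as a block, and 16 were higher, 8 lower and 17 did not pass (edgeR). That share called lies near the 59.1% of all genes called in this comparison, so the count is no result about these lists. Il1rl1 was at 523, 611, 380 and 750 CPM in ES-titled skin in order of age, against 0.0502, 0.132, 2.96 and 24.2 CPM in E-titled skin (log2 change 8.76 ± 1.57 SE, edgeR adjusted p = 0.00452). Il33, which encodes the ligand of that receptor, was at 450.5, 557, 406 and 720 CPM in ES-titled skin, against 0.703 to 5.83 CPM in E-titled skin (8.55 ± 0.68, edgeR adjusted p = 0.000365). Ptgs1, a cyclooxygenase gene, was at 395 to 409 CPM in ES-titled skin, against 2.51 to 12.2 CPM in E-titled skin (6.52 ± 0.48, edgeR adjusted p = 0.000295).

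Mcpt8, a basophil protease gene of the same family as the chymases, was at 192, 238, 173 and 304 CPM in ES-titled skin, against 0, 0, 0.0417 and 0.761 CPM in E-titled skin, while the basophil genes Fcer1a and Cd200r3 were at 0 in all 4 ES-titled libraries. Among genes that were lower in ES-titled skin, Kit was at 0.777 to 2.36 CPM, against 30.6 to 71.5 CPM in E-titled skin (edgeR log2 change -4.58 ± 0.50, adjusted p = 0.000874). Gata1 had 0 counts in all 4 ES-titled libraries, against 20 to 169 counts in E-titled skin. Title and sequencing project cannot be told apart in these values.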
